A study of Homo sapiens with 6 samples.

Results

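The genes described here are 10 repressors and outputs of the circadian clock, PER1, PER2, PER3, CRY1, CRY2, NR1D1, NR1D2, DBP, TEF and BHLHE40, which were chosen by symbol among the 30267 genes of the deposited table. All 10 were listed, and all 10 were among the 16554 genes that passed the filter on low values (3 or more of the 6 libraries had to reach a normalized count of 10). Total RNA had been sequenced from SW839, an established renal cell carcinoma line, to learn what changes when RNF25, a ubiquitin ligase, is depleted. The shRNF25 group held 3 libraries from cells with an RNF25 hairpin and the shControl group 3 libraries from cells with the pLKO vector. All cells grew in medium with serum and, according to the methods, were stable lines made by lentiviral infection and puromycin selection. The treatment label of the control samples also names the RNF25 plasmid, so that the groups rest on titles, genotype labels and library names. The shRNF25 libraries share 1 hairpin name. The hour of harvest, the time since the last change of medium and the density of the cells are not given in the sources used here. The samples are labelled as biological triplicates. The library names of shRNF25 form a numbered series and those of shControl do not. Whether the control libraries were prepared together is not given in the sources used here.

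The circadian clock is a feedback loop of transcription that runs in nearly every cell, kidney epithelium included. CLOCK or NPAS2, paired with BMAL1 (listed under its older symbol ARNTL), binds E-box sequences and switches on the PER and CRY genes, whose proteins return to the nucleus and inhibit that pair. A further loop is closed by NR1D1 and NR1D2 (REV-ERBα and REV-ERBβ), nuclear receptors that repress ARNTL at ROR elements, and by BHLHE40 and BHLHE41, which compete for E-boxes. DBP, TEF and HLF are leucine zipper activators that carry the rhythm to output genes through D-box sequences, where NFIL3 acts as a repressor. Cultured cells that have not been synchronized run out of phase with each other, and a change of medium, serum, glucocorticoid or temperature can reset them.

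Of the 10 genes, 3 were higher in shRNF25 past the study's criteria, which ask for a change of 1.5-fold or more together with an adjusted p below 0.05, and 0 were lower. The 3 were TEF, PER2 and PER3. Among all tested genes, 15.7% passed these criteria, 8.65% as higher and 7.1% as lower. At an adjusted p below 0.05 and any size of change the clock genes called were also these 3, beside 21.3% of all tested genes, 10.5% as higher and 10.8% as lower. At an unadjusted p under 0.05 with limma, 1 of the 10 genes, BHLHE40, was lower, beside 2987 of the 16554 tested genes. Past the criteria, edgeR and DESeq2 on the recovered reads also gave 0 lower genes. For 6 of the 10 genes the libraries of the groups fell into separate ranges, 5 of them higher and 1 lower in shRNF25, where 42.5% of all tested genes showed no overlap, 20.7% as higher and 21.8% as lower. The median log2 fold change of the 10 genes was 0.26, beside -0.013 over all tested genes. Because the RNA came from bulk cultures, a lower or higher share of cells of one kind and less or more RNA per cell cannot be told apart.

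**Figure D1:**
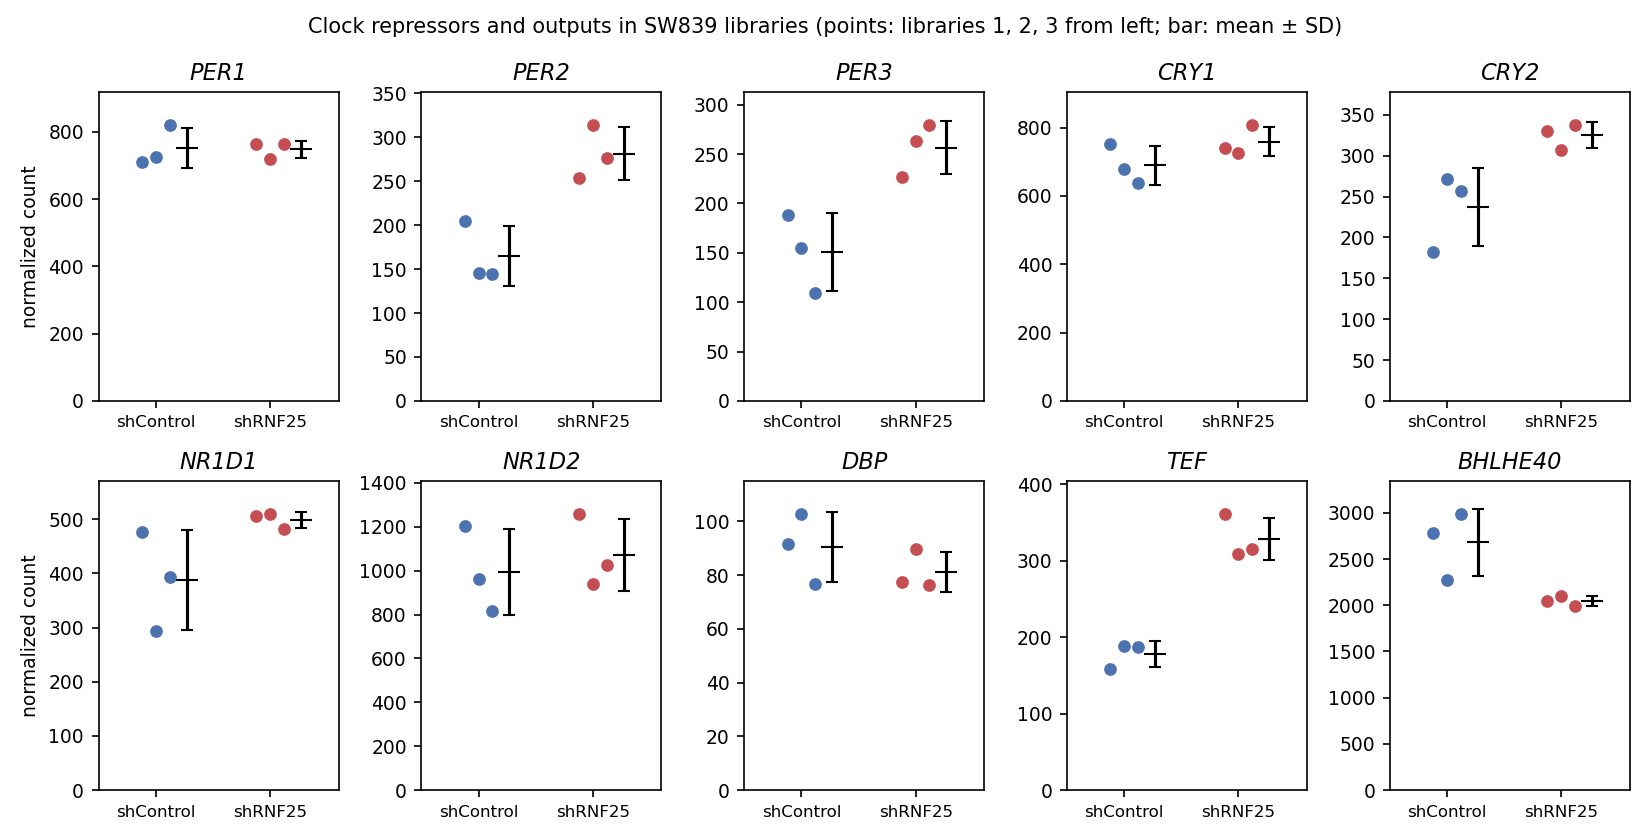
Normalized counts (y axis, from 0) of the 10 clock genes in each of the 3 shControl and 3 shRNF25 libraries, with the mean ± SD of each group at the right of its points. PER2, PER3, CRY2, NR1D1 and TEF lie higher in every shRNF25 library than in any shControl library, BHLHE40 lies lower in every shRNF25 library, and the other 4 genes overlap.

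RNF25 itself had a normalized count of 694, 534 and 536 in the shControl libraries and of 214, 246 and 265 in the shRNF25 libraries. Its log2 fold change was -1.27 with an SE of 0.15 (limma, adjusted p = 0.000585). STK36, whose exons share 260 bases with RNF25 on the opposite strand, lay at 678 to 928 in shControl and 1154 to 1204 in shRNF25. Between 18647460 and 19943154 reads were counted on genes in each library. Across genes, the shControl libraries were less alike (Pearson r of 0.976 to 0.988) than the shRNF25 libraries (0.994 for each pair), and shControl replicate 1 stood farthest from the others. Of the renal epithelial and carcinoma markers, PAX8, KRT8, KRT18 and EPCAM were found in every library, whereas CA9 reached only 50.7, LHX1 stayed at or below 4.62 and PAX2 was not listed. Of the 9 tested markers of that list VIM, a mesenchymal filament, rose by 1.31 on the log2 scale (limma, adjusted p = 0.00805), and the keratin KRT7 fell by 0.72 (adjusted p = 0.0222, past the criteria in 11 of 16 alternatives). CDH1, the epithelial cadherin, had an adjusted p of 0.0129 with a log2 fold change of -0.48, under the fold change of 1.5. Of 8 leukocyte, endothelial and fibroblast markers 7 were listed, with a summed level of 1565 to 1936 in shControl and 1275 to 1566 in shRNF25. Of these, CD3E and DCN never exceeded 1.08, while CDH5, an endothelial cadherin, went from 73.0 to 199 in shControl down to 3.64 to 8.31 in shRNF25. PECAM1, also endothelial, lay at 350 to 466 in shControl and 399 to 549 in shRNF25, which overlapped, and the fibroblast collagen COL1A1 had a log2 fold change of -0.37 (adjusted p = 0.0479, under the fold change of 1.5). Any part of other cell types in the results below was not tested.

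The promoters of the genes were searched for the sequences through which the clock acts. RefSeq starts on GRCh38.p14 gave 14 windows of 250 bases upstream of a start for the 10 genes. As a background, the share of all 27305 genes with at least 1 such window that holds the same letters is given. The E-box CACGTG was found upstream of 4 of the 10 genes (BHLHE40, NR1D2, PER1 and TEF), against 7.73% of all genes. The related CACGTT was found for 4 genes (CRY1, CRY2, NR1D1 and PER2) against 5.53% of genes, the D-box TTATGNAA for 3 (NR1D2, PER1 and PER3) against 3.78%, and the ROR element TAGGTCA for 1 (CRY2) against 2.01%. The cAMP response element TGACGTCA was found for 0 of the 10 genes, against 2.03% of all genes. Both strands were read, and none of these 5 sequences contains another. Of the 10 genes, DBP alone held none of these letters in its window. Stretches around matches are shown for the 3 genes that passed the criteria and for PER1 and NR1D2, which did not, so that they can be compared, with 20 bases on each side, the 5′ end of the gene's strand first and the matched letters in capitals. The D-box of PER1, 30 to 23 bases before its start, is not shown. The NR1D2 stretch holds a D-box read on the other strand and then a pair of E-boxes. The stretches lie at chr2:238288782-238288827 (PER2, minus strand), chr1:7784094-7784141 (PER3, plus strand), chr22:41367240-41367285 and chr22:41381729-41381774 (TEF, plus strand, upstream of its separate starts), chr17:8152552-8152597 (PER1, minus strand) and chr3:23945907-23946041 (NR1D2, plus strand). An E-box stood upstream of TEF, which passed the criteria, and of PER1, NR1D2 and BHLHE40, which did not. A D-box stood upstream of PER3, which passed, and of NR1D2 and PER1, which did not. Any part of these sequences in the changes was not tested.
PER2, CACGTT: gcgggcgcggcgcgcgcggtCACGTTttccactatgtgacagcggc
PER3, D-box: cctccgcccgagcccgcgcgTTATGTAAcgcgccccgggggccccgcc
TEF, E-box, upstream start: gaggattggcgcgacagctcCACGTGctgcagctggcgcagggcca
TEF, E-box, downstream start: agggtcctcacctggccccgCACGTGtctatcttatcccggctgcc
PER1, E-box: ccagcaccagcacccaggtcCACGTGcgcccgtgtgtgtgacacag
NR1D2, D-box and E-boxes: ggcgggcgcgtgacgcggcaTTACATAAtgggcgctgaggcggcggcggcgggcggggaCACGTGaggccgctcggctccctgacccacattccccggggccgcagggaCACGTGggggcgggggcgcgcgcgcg

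Among the period genes, whose proteins assemble the inhibitory complex, PER2 and PER3 rose and PER1 did not pass the test. PER2 lies at chr2:238244038-238290102 on the minus strand (GENCODE 29, GRCh38). It had a normalized count of 205, 146 and 145 in shControl replicates 1, 2 and 3, and of 254, 314 and 276 in the shRNF25 replicates. The groups did not overlap, and shControl replicate 1 was the control nearest to the shRNF25 range. The means were 165 ± 34.3 and 282 ± 30.2 (SD, n = 3 each), the latter 171% of the former. On the log2 scale PER2 rose by 0.78 with an SE of 0.173 (limma, adjusted p = 0.0125). The call was lost without shRNF25 replicate 2 (adjusted p = 0.072) or shRNF25 replicate 3 (adjusted p = 0.0553), while the log2 fold change was 0.70 and 0.79. Over all 16 alternatives the adjusted p of PER2 ran from 0.000543 to 0.072. Without shRNF25 replicate 2 or 3, 824 and 831 of all tested genes were higher, against 1432 with all libraries.

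PER3, at chr1:7784320-7845177 on the plus strand, had a normalized count of 188, 155 and 109 in shControl and of 227, 263 and 279 in shRNF25. Again no control library reached the lowest shRNF25 library. The means were 151 ± 39.6 and 256 ± 26.8 (SD, n = 3 each), a rise of 0.79 on the log2 scale with an SE of 0.204 (limma, adjusted p = 0.0236). This was the least stable of the 3 rises. Without shControl replicate 3 the log2 fold change was 0.58, just under the fold change of 1.5 (adjusted p = 0.0337). Leaving out shControl replicate 2 gave an adjusted p of 0.0543. Leaving out shRNF25 replicate 1, 2 or 3 gave 0.0607, 0.0907 or 0.105. That last value was the highest of the 16 alternatives, whose lowest was 0.00222. Without shRNF25 replicate 1, 2 or 3, 748, 824 and 831 of all tested genes were higher, against 1432 with all libraries. Exons of UTS2 and of an antisense RNA cover 16.7% of the annotated exon bases of PER3 on the other strand, and both were listed at 3.81 or less in every library.

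PER1, which is known to respond within an hour to serum, glucocorticoid and cAMP, had a normalized count of 712, 726 and 820.3 in shControl and of 763, 719 and 764 in shRNF25. The shRNF25 libraries lay inside the control range. The log2 fold change was -0.0054, with a 95% interval of -0.25 to 0.24 (adjusted p = 0.979), so that the interval excludes a change of 1.5 times in either direction. Within each library, log2 PER1 exceeded log2 PER2 by 2.20 ± 0.36 in shControl and by 1.41 ± 0.20 in shRNF25 (SD, n = 3 each). The excess over PER3 was 2.35 ± 0.50 and 1.55 ± 0.17, and its shift of -0.80 was -0.52 without shControl replicate 3. In both pairs the groups did not overlap (exact permutation test, two-sided, with p = 0.1, which is the smallest value possible for 3 libraries against 3, and 0.14 after adjustment over 7 pairs). Such a difference within a library does not depend on how the library was scaled. PER2 and PER3 differed from each other by 0.15 ± 0.25 in shControl and 0.13 ± 0.14 in shRNF25, and these values overlapped.

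The cryptochromes, partners of the PER proteins that bind the activator pair directly, did not pass the test. CRY1 had a normalized count of 752, 679 and 637 in shControl and of 742, 727 and 807 in shRNF25. These ranges overlapped, and the log2 fold change was 0.14 (95% interval -0.12 to 0.40, adjusted p = 0.416). CRY2 had a normalized count of 182, 272 and 257 in shControl and of 331, 308 and 337 in shRNF25. Every shRNF25 library was above every control, and shControl replicate 1 was the lowest of the 6. The log2 fold change of CRY2 was 0.47 (95% interval 0.10 to 0.85, SE 0.168), with an adjusted p of 0.0743 that misses the threshold. Without shControl replicate 1 the log2 fold change was 0.30, with an adjusted p of 0.0474 and a fold change under 1.5, and over the 16 alternatives the adjusted p ran from 0.0474 to 0.225. The difference CRY1 minus CRY2 was 1.55 ± 0.42 in shControl and 1.22 ± 0.05 in shRNF25 (log2 scale, SD, n = 3 each), without overlap and with the same adjusted p of 0.14 in the exact permutation test. The shift of -0.33 rested largely on shControl replicate 1, without which it was -0.093.

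The nuclear receptors of the second loop did not pass either. NR1D1 had a normalized count of 476, 293 and 394 in shControl and of 506, 509 and 481 in shRNF25. The groups did not overlap, but shControl replicate 1 came within 5 of the lowest shRNF25 library. The log2 fold change was 0.39 with an SE of 0.172 (limma, adjusted p = 0.141). This value turned on single controls, and these fits also held the lowest and the highest adjusted p of the 16 alternatives, with 0.55 without shControl replicate 1 (adjusted p = 0.00902) and 0.20 without shControl replicate 2 (adjusted p = 0.321). Exons of THRA, a thyroid hormone receptor gene, cover 263 bases, or 9.49%, of the annotated exon bases of NR1D1 on the opposite strand. THRA had a normalized count of 548 to 608 in shControl and 494 to 592 in shRNF25. The library kit was stranded, but the strand setting of the counting is not given in the sources used here. NR1D2 had a normalized count of 1203, 963 and 817 in shControl and of 1257, 940.1 and 1024 in shRNF25. The ranges overlapped, and the log2 fold change was 0.12 (95% interval -0.25 to 0.49, adjusted p = 0.648). Its sign turned without shControl replicate 3 or shRNF25 replicate 1. The difference between these receptors overlapped between the groups (two-sided exact permutation test, p = 0.4), with a shift of 0.27 that was 0.098 without shControl replicate 2, 0.17 without shRNF25 replicate 2 and 0.43 without shControl replicate 3.

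Of the output activators, TEF rose and DBP did not pass the test. TEF, at chr22:41367333-41399326 on the plus strand, had a normalized count of 158, 189 and 188 in shControl and of 361, 309 and 316 in shRNF25. The gap between the groups exceeded the spread within either. The means were 178 ± 17.5 and 329 ± 28.1 (SD, n = 3 each), the latter 184% of the former. TEF rose by 0.88 on the log2 scale with an SE of 0.139 (limma, adjusted p = 0.00265). TEF passed the criteria in each fit that left out 1 library, at log2 fold changes of 0.80 to 0.92. DBP had a normalized count of 91.8, 103 and 76.6 in shControl and of 77.5, 89.6 and 76.3 in shRNF25, which overlapped. Its log2 fold change was -0.15 (95% interval -0.55 to 0.25, adjusted p = 0.59), and it rested on 71 to 100 reads a library. DBP minus TEF was -0.98 ± 0.27 in shControl and -2.01 ± 0.22 in shRNF25 (log2 scale, SD, n = 3 each), the widest shift among the 7 pairs, without overlap (exact permutation test, adjusted p = 0.14). Exons of SPHK2 on the other strand cover 10.1% of the annotated exon bases of DBP, and SPHK2 lay at 183 to 244 in all libraries.

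The remaining member of this family, HLF, which belongs to the list of other outputs, was nearly silent in the controls, with 2, 2 and 0 reads, and had 39, 32 and 17 reads in shRNF25. Taking 3 reads per library as the floor in the controls (3.21), the mean of HLF was at least 8.44-fold higher in shRNF25 (27.1 ± 9.90, SD, n = 3). This bound is for the means, and shRNF25 replicate 3 lay nearer to the floor, at 16.2. HLF passed the filter on low values only through the 3 shRNF25 libraries, so its call is given as a description and no p-value is given. NFIL3, the repressor at the same D-box sequences, fell from 301 ± 71.5 to 178 ± 15.96 (SD, n = 3 each), a log2 fold change of -0.73 (adjusted p = 0.0198 from limma). The call of NFIL3 was lost without shRNF25 replicate 1, 2 or 3 (adjusted p = 0.0705, 0.0926 and 0.0618) and, at a log2 fold change of -0.55, without shControl replicate 1. Over the 16 alternatives its adjusted p ran from 0.00256 to 0.0926. Without shRNF25 replicate 1, 2 or 3, 813, 827 and 823 of all tested genes were lower, against 1175 with all libraries.

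**Figure D2:**
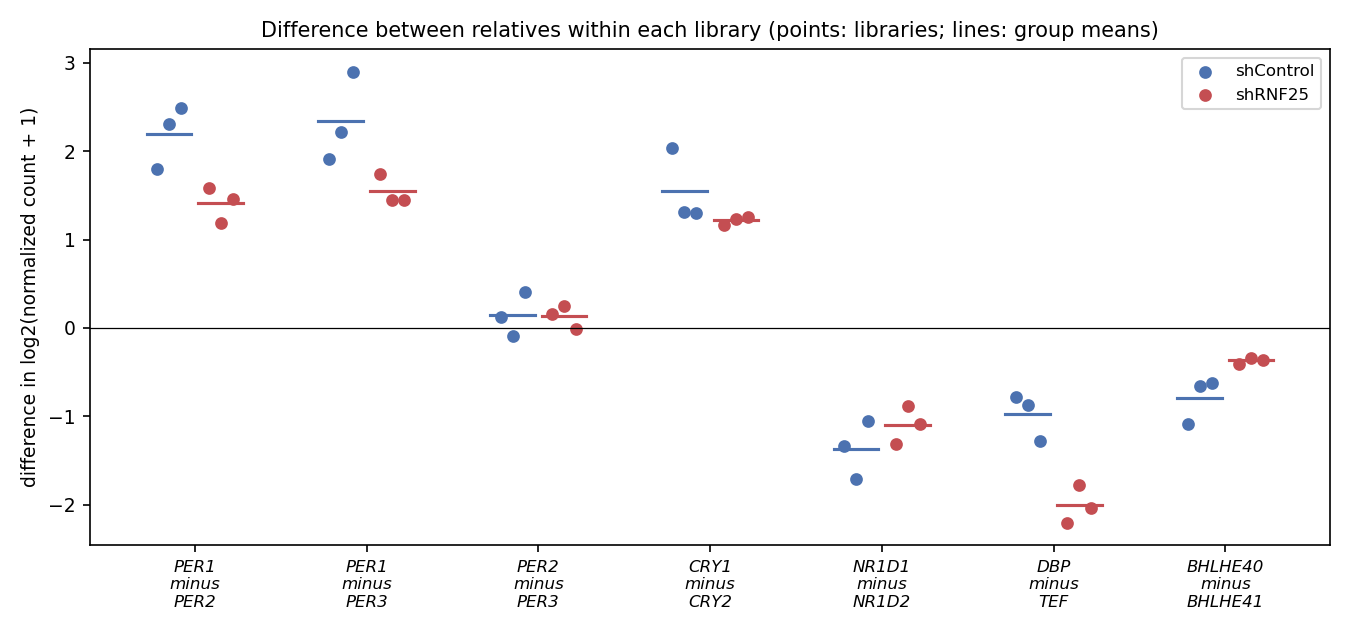
Difference in log2(normalized count + 1) (y axis) between related genes within each library, with shControl points at the left and shRNF25 points at the right of each pair and lines at the group means. DBP minus TEF moved most, from a mean of -0.98 to -2.01, and PER2 minus PER3 and NR1D1 minus NR1D2 overlap between the groups.

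BHLHE40, a basic helix-loop-helix repressor that is also known as a target of hypoxia-inducible factor, was the one gene of the 10 whose shRNF25 libraries all lay below the controls. It had a normalized count of 2782, 2272 and 2983 in shControl and of 2042, 2102 and 1997 in shRNF25. The shRNF25 libraries were close together, and shControl replicate 2 was nearest to them. The means were 2679 ± 367 and 2047 ± 52.7 (SD, n = 3 each), and the log2 fold change was -0.38 (95% interval -0.65 to -0.11, SE 0.121), with an adjusted p of 0.0536 that misses the threshold. The adjusted p was 0.0182 without shControl replicate 2 and 0.0342 without shControl replicate 1. With DESeq2 on the recovered reads of all 6 libraries it was 0.03785, at a fold change under 1.5. Over the 16 alternatives it ran from 0.0182 to 0.191, and 4 of them were below 0.05. Its relative BHLHE41 fell past the criteria, from 4699 ± 1168 to 2641 ± 62.7 (log2 fold change -0.80, adjusted p = 0.00914), and did so in all 16 alternatives. The difference BHLHE40 minus BHLHE41 was -0.79 ± 0.26 in shControl and -0.37 ± 0.03 in shRNF25, without overlap (exact permutation test, adjusted p = 0.14), and this shift of 0.42 was 0.27 without shControl replicate 1.

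Compared per kilobase of the longest coding transcript in GENCODE 29, BHLHE40 was the most abundant of the 10 in shControl, at a normalized count of 771 ± 106 per kilobase. CRY1 (211 ± 17.8), NR1D2 (189 ± 37.0), PER1 (159.95 ± 12.5) and NR1D1 (139.95 ± 33.1) followed, each within the SD of its neighbour. CRY2 was at 56.4 ± 11.4, TEF at 40.6 ± 3.97, DBP at 40.5 ± 5.85, PER2 at 25.8 ± 5.37 and PER3 at 23.8 ± 6.27 per kilobase. TEF and DBP were level in shControl, and so were PER2 and PER3. In shRNF25 the TEF level per kilobase was 74.8 ± 6.40 and that of DBP 36.4 ± 3.31, the lowest of the 10, behind PER2 at 44.1 ± 4.73 and PER3 at 40.6 ± 4.25. Over the union of all annotated exons, which is longer than that transcript most of all for DBP, DBP was lowest in both groups.

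Every one of the 10 genes varied more between the shControl libraries than between the shRNF25 libraries. The median coefficient of variation was 17.01% in shControl and 7.10% in shRNF25. This was also the case for 13796 of the 16554 tested genes, with medians of 18.2% and 6.70%, so the wider spread of the controls was not particular to clock genes. PER3 varied most in shControl, at 26.3%, and NR1D1 changed its spread most, from 23.6% to 3.02%. Of the controls, replicate 1 had the highest value for 5 of the 10 genes and replicate 3 the lowest value for 5.

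**Figure D3:**
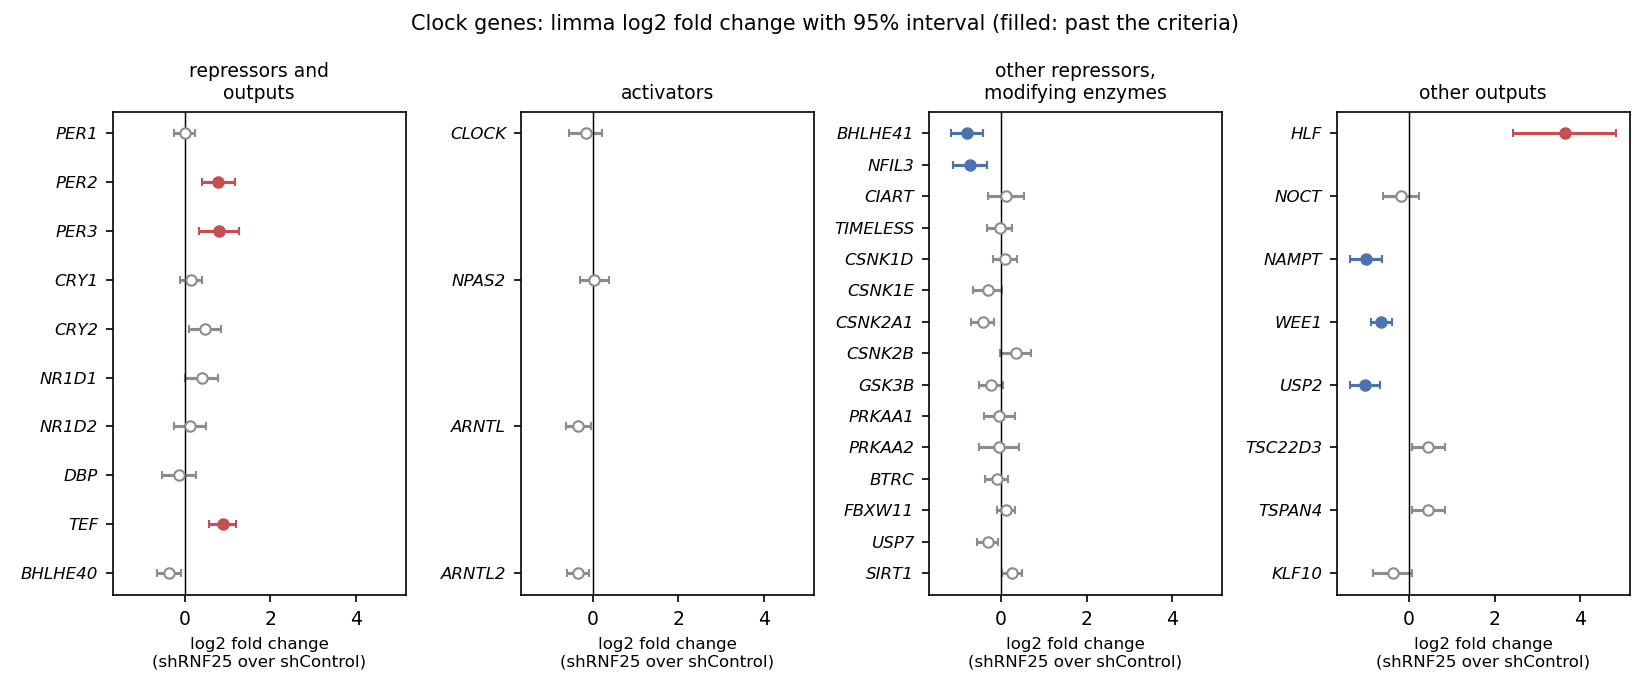
Log2 fold change of shRNF25 over shControl (x axis) with its 95% interval from limma for tested genes of 4 clock gene lists, with filled points for genes past the criteria. In the left panel TEF, PER2 and PER3 stand to the right of 0, and BHLHE41, NFIL3, NAMPT, WEE1 and USP2 stand to the left in the others, where 15 of the 16 other repressors and enzymes are drawn. The point of HLF depends on the pseudocount because its controls hold at most 2 reads.

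The activators that the repressors act on showed no change past the criteria. Of the activators 4 were tested, and 0 passed with limma, edgeR or DESeq2, beside 15.7% of all tested genes with limma. At an unadjusted p under 0.05 with limma, 2987 of all 16554 tested genes were lower. By that threshold 2 activators were lower. These were ARNTL, which had 347, 294 and 323 in shControl and 268, 258 and 233 in shRNF25 (log2 fold change -0.35, adjusted p = 0.0909), and ARNTL2 (-0.35, adjusted p = 0.0565). The groups did not overlap for either gene. CLOCK (-0.18) and NPAS2 (0.03) overlapped. RORA was listed below the filter, between 4.32 and 10.3. The balance between a repressor and ARNTL within a library, which does not depend on scaling, can be read from these values. Log2 NR1D1 minus log2 ARNTL was 0.46, -0.0050 and 0.29 in shControl and 0.91, 0.98 and 1.05 in shRNF25. For PER2 this difference was -0.76, -1.01 and -1.15 in shControl and -0.075, 0.28 and 0.25 in shRNF25. For TEF it was -1.13, -0.64 and -0.78 against 0.43, 0.26 and 0.44. In each of these 3 differences every shRNF25 library lay above every shControl library. This follows from the separate ranges of NR1D1, PER2, TEF and ARNTL given above, so it is not a further result. BHLHE40 minus ARNTL stayed between 2.94 and 3.20 in shControl and between 2.93 and 3.10 in shRNF25.

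Among 16 other repressors and enzymes that modify clock proteins, 2 were lower past the criteria, BHLHE41 and NFIL3, and 0 were higher with limma, edgeR or DESeq2 (1 was higher at an unadjusted p under 0.05 with limma). The share called was 12.5%, beside 15.7% of all tested genes. At an unadjusted p under 0.05 with limma, 2866 of the 16554 tested genes were higher. CSNK2A1, a catalytic subunit of casein kinase 2, had an adjusted p of 0.0287 with a log2 fold change of -0.44, under the fold change of 1.5. The other 13 did not pass, among them CSNK1D (0.09) and CSNK1E (-0.31), the casein kinases that mark PER proteins for breakdown. CIART, a repressor known to cycle with the PER genes, was at 511, 431 and 301 in shControl and 453, 449.7 and 407 in shRNF25, which overlapped. The median log2 fold change of the 16 was -0.045.

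Of 8 other output genes 3 were lower, and the 1 called higher was HLF, which entered the test only through its shRNF25 libraries. Over all tested genes, 7.1% were lower and 8.65% higher. NAMPT, which makes a precursor of NAD, fell by 1.02 on the log2 scale (adjusted p = 0.00294), USP2, a deubiquitinase, fell by 1.04 (adjusted p = 0.00184) and WEE1, the kinase that holds cells before mitosis, fell by 0.65 (adjusted p = 0.00338), all from limma. For these 3 genes no shRNF25 library reached a control library. NAMPT, USP2 and WEE1 moved the other way from PER2 and PER3, and the cause was not tested. TSC22D3 (0.45), TSPAN4 (0.45), NOCT (-0.18) and KLF10 (-0.39) did not pass. The median log2 fold change of these 8 outputs was -0.29, also with HLF at its bound, since HLF remains the highest of the 8.

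**Figure D4:**
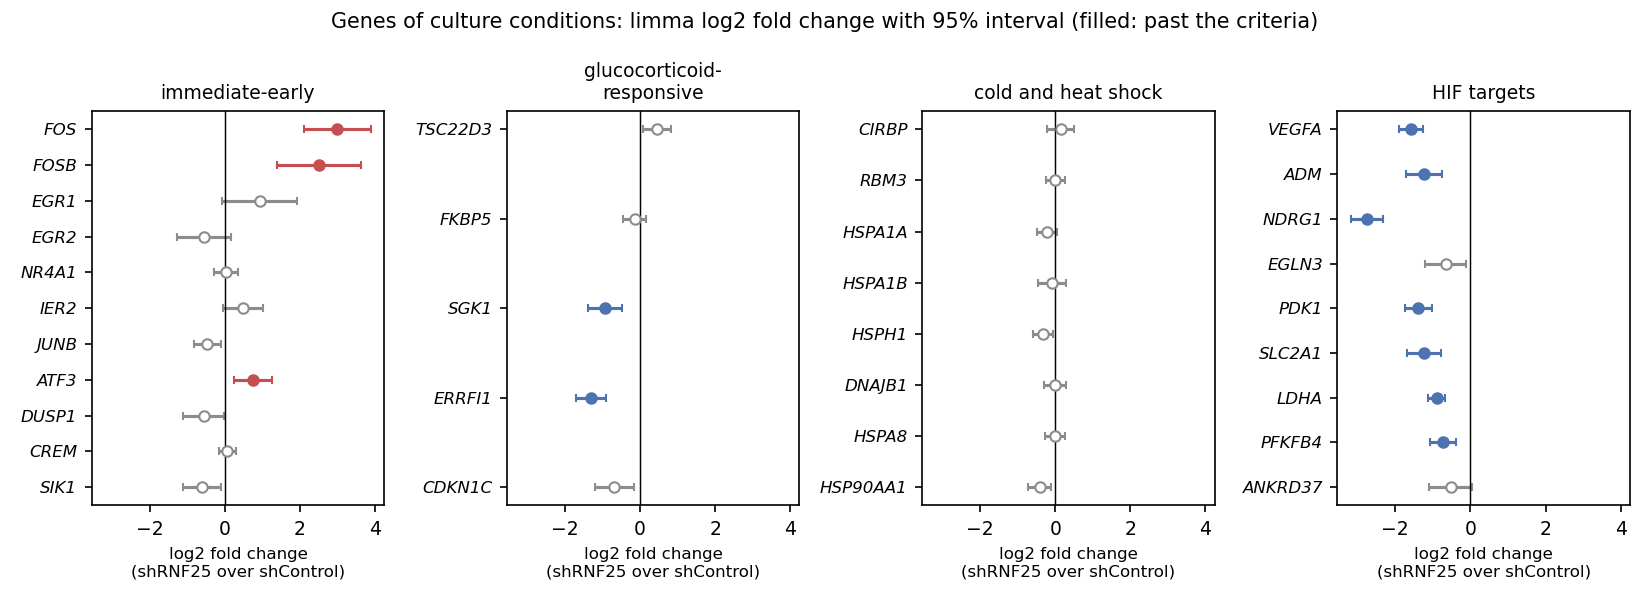
Log2 fold change of shRNF25 over shControl (x axis) with its 95% interval from limma for genes that follow serum or cAMP, glucocorticoid, temperature and oxygen supply, with filled points for genes past the criteria. FOS and FOSB stand far to the right, all 9 HIF targets lie to the left of 0, and the cold and heat shock genes lie nearest to 0.

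Because the conditions of harvest are not given in the sources used here, 4 lists of genes that respond to conditions known to reset clocks were read beside the clock genes. Of 11 tested immediate-early genes 3 were higher and 0 lower, with 3 lower at an unadjusted p under 0.05 with limma and 0 lower past the criteria with edgeR and DESeq2. FOS had 157, 182 and 564 in shControl and 1883, 2088 and 2087 in shRNF25 (log2 fold change 2.99, adjusted p = 0.00114), FOSB had a log2 fold change of 2.51 and ATF3 of 0.75 (adjusted p = 0.0419). FOS and FOSB passed in all 16 alternatives, whereas ATF3 passed in 9 of 16, not with edgeR or with no filter, and not in the fits that left out 1 library other than shControl replicate 3. Over these alternatives the adjusted p of ATF3 ran from 0.00131 to 0.16. The cAMP-responsive NR4A1 (0.04) and CREM (0.07) overlapped between the groups. The 3 immediate-early genes lower at an unadjusted p under 0.05 were SIK1 (-0.61, adjusted p = 0.0805), DUSP1 (-0.56, adjusted p = 0.135) and JUNB (-0.46, adjusted p = 0.0732). None of these 3 passed the criteria, and SIK1 overlapped between the groups. Of 5 tested glucocorticoid-responsive genes 0 were higher with limma, edgeR or DESeq2 and 2 were lower, SGK1 at -0.93 and ERRFI1 at -1.30. TSC22D3 was the 1 gene of that list that was higher at an unadjusted p under 0.05. FKBP5, the usual readout of the glucocorticoid receptor, was at -0.14 (adjusted p = 0.471). Of 8 cold and heat shock genes 0 passed with limma, edgeR or DESeq2, with 2 lower at an unadjusted p under 0.05, and RBM3 was at -0.0033. The median log2 fold change of 9 tested HIF targets was -1.23, and 7 of them were lower, namely NDRG1 at -2.76, VEGFA at -1.58, PDK1 at -1.39, ADM at -1.25, SLC2A1 at -1.23, LDHA at -0.90 and PFKFB4 at -0.73. The summed normalized count of all 10 listed HIF targets, with the untested CA9, was 73149 to 92139 in shControl and 32444 to 33196 in shRNF25. Past the criteria were 27.3% of tested immediate-early genes, 40% of glucocorticoid-responsive genes and 77.8% of HIF targets. Among all tested genes this share was 15.7%. At an unadjusted p under 0.05 with limma, 2866 of the 16554 tested genes were higher and 2987 lower. The part of any of these conditions in the values of the clock genes was not tested.

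The genes whose pattern was most like that of TEF, the member with the smallest adjusted p, were PRSS35 (Pearson r of log2 values over the 6 libraries 0.998), ATXN1L (0.997) and CYBB (0.997). These 3 share the libraries and the same contrast with TEF, and 38 of the tested genes exceeded an r of 0.99, so the order among them is a description. PRSS35 went from 111 ± 18.6 to 284 ± 28.1 (SD, n = 3 each). ATXN1L went from 1660 ± 51.8 to 1947 ± 30.7, a fold change of 1.17 that did not pass (adjusted p = 0.117). CYBB went from 8.87 ± 1.96, near the filter on low values, to 25.3 ± 4.90.

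**Figure D5:**
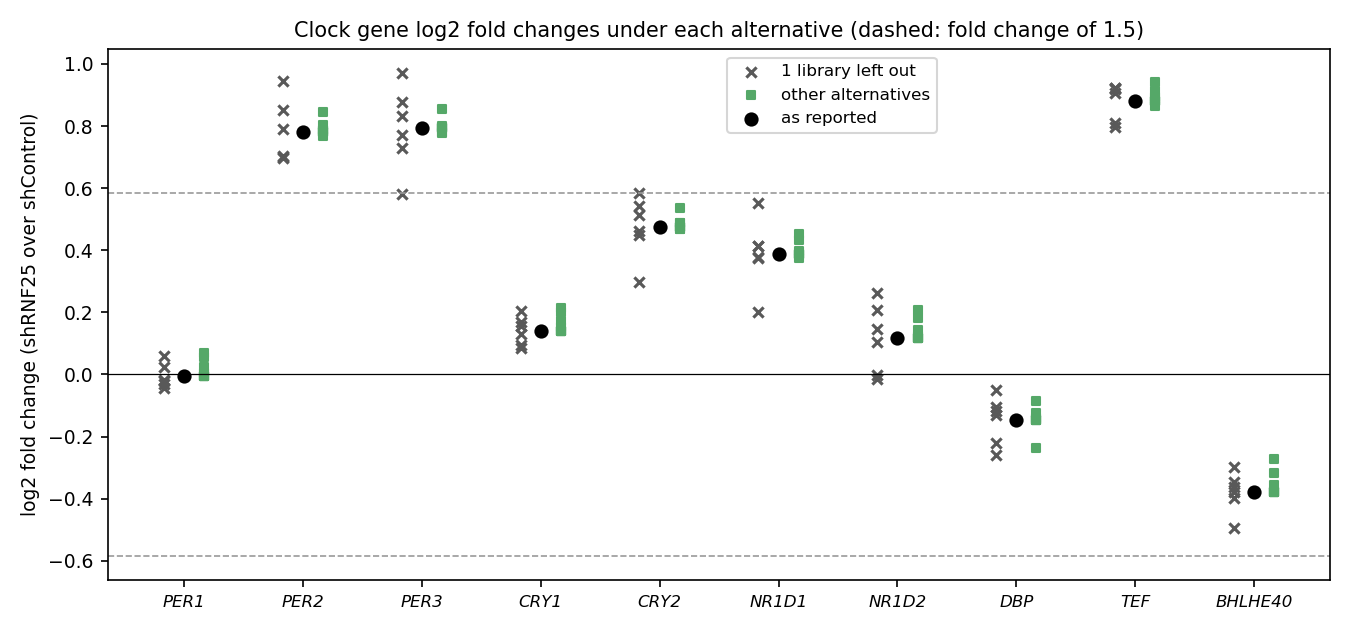
Log2 fold change (y axis) of each clock gene as reported (black), in the 6 fits that each left out 1 library (crosses) and under the other alternatives (squares), with dashed lines at a fold change of 1.5. TEF and PER2 stay above the upper line throughout, PER3 falls just below it once, and PER1 and NR1D2 change sign.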

How the data were processed

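RNA-seq counts of 3 shRNF25 and 3 shControl libraries were used. The authors deposited normalized counts, a signal in which the reads per gene are scaled by one size factor a library, with no correction for gene length. The submitters' processing notes name fastp, HISAT2, HTSeq and GRCh38, and the methods name DESeq2 for differential expression. The annotation and the strand setting are not given in the sources used here. Whole reads were recovered for 100% of values (within 0.001 reads). On these reads edgeR called 1525 higher and 1133 lower genes and DESeq2 1414 and 1220, against 1432 and 1175 with limma.

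Values were taken as log2(normalized count + 1), and 16554 genes with at least 10 in at least 3 libraries were fitted with limma 3.58.1 (eBayes with a trend) in R 4.3.3, with the group as the only term and Benjamini-Hochberg adjustment over all of them. Adjusted p-values are limma's unless another tool is named, and log2 fold changes are on this log2 scale, which understates the change of low genes. Depth was 18647460 to 19943154 reads a library, and the precision of a value follows from its reads and the 3 libraries per group. Differences between relatives were compared with a two-sided exact permutation test. edgeR 4.0.16 and DESeq2 1.42.0 were alternatives. The limma fit was tested on data simulated with the same spread in both groups. That test does not cover the wider spread of the controls seen here. The clock genes and the lists were chosen with earlier results of these data known. All 10 genes, RNF25 and the genes of the lists that passed the criteria are named by rule, with overlapping genes and the 3 genes most like TEF. Other genes that are named were chosen after their values were seen, and 2 genes of the lists are not reported here. Positions come from GENCODE 29 (GRCh38), in which 93.2% of the table's symbols were found, and promoters from RefSeq (GRCh38.p14), matched by symbol for all 10 genes. Of the 50-base words of the longest coding transcript, 1.4% for PER2 and 0 for the other 9 occur in transcripts of other genes.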

Additional observations from a re-analysis of the deposited data

How the results depend on the processing

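The count of higher clock genes was 3 under every scaling, pseudocount, filter and tool tried, and under library weights by group, which were added after the data had been seen. It was 1 to 3 with 1 library left out and 0 at a fold change of at least 2. In the fits that left out 1 library, lower modulators numbered 1 to 2, higher other outputs 1 to 2, lower immediate-early genes 0 to 2 and higher glucocorticoid-responsive genes 0 to 1. The 1 higher gene came without shControl replicate 2. At a fold change of at least 2, 0 modulators and 1 glucocorticoid-responsive gene were lower. A minimum of 50 in place of 10 left 0 higher other outputs, because HLF was then not tested. Over all genes, a fold change of at least 2 left 893 higher and 513 lower. A fold change of any size gave 1785 lower, and the filter at 50 left 898 higher. Leaving out 1 library gave 748 to 1725 higher and 813 to 1269 lower. The low ends came from leaving out shRNF25 replicate 1, 2 or 3, with 748, 824 and 831 higher and 813, 827 and 823 lower. RNF25 stayed past the criteria in all 16 alternatives. PER1 turned positive, at 0.0704 with quantile normalization, 0.057 after rescaling, 0.024 with edgeR and 0.0050 with DESeq2, and lay between -0.044 and 0.058 with 1 library left out. NR1D2 fell to -0.015 and -0.0013 in 2 of those fits, whose highest value was 0.26. The cause was not tested. The replicate numbers did not pair the libraries (same-number correlations of -0.064, -0.087 and 0.047). With the replicate number as a block, 3 clock genes were higher and 0 lower, and 1398 and 1193 of all genes. DBP, at 71 to 100 reads, is limited most by depth.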
